A study of Homo sapiens with 24 samples.

Results

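In a list of genes that build and run the DNA replication fork, the 48 tested fell together in A549 cells exposed to dexamethasone (dex). They then came most of the way back. Replication genes outside this list did not all fall. The list and the genes set beside it were chosen with earlier results of these data known, so that this contrast may partly reflect the choice. The list holds 49 genes, grouped here by what their products do: 12 genes for licensing of origins, 6 for activation of the helicase, 7 for polymerases and primase, 9 for the clamp, its loaders and the lagging strand, 6 for supply of nucleotides and removal of uracil, 4 for protection of the fork and 4 for chromatin and histone supply, with *UHRF1* as the remaining gene. *UHRF1* was not analysed here. The other 48 all had enough reads to be tested, among 33127 genes with rows and 15337 genes tested.

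A549 is an established human cell line from a lung adenocarcinoma, and dex is a synthetic glucocorticoid (GC) that binds the glucocorticoid receptor. Cells received 100 nM dex in ethanol, or the same volume of ethanol alone (EtOH, 0.02% of the medium), and their poly-A RNA was read by sequencing every 2 h from 1 to 11 h. Each of the 12 combinations of treatment and time had 2 libraries that the labels call biological replicates, 24 in all, and what was separate between them (culture, passage or day) is not given, so that p-values measure the spread between these libraries, which may be technical. All groups were the same cell line, kept in F-12K medium with fetal bovine serum and antibiotics, with no other genotype or agent, no library from before treatment was analysed here, and a fold change below sets dex against EtOH at the same hour.

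Before a cell enters S phase, the origin recognition complex, CDC6 and CDT1 place the MCM2 to MCM7 helicase on origins, a step called licensing. Kinases then recruit CDC45 and the GINS complex, which turn the loaded MCM ring into a working helicase, and the polymerases, the PCNA clamp, its RFC loader and the enzymes that finish the lagging strand copy the opened DNA. Many of these genes are classical targets of the E2F transcription factors, which drive them in late G1 and S phase, and their mRNAs are used as marks of cycling cells.

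Promoter stretches of 6 members are printed here because they carry E2F-like motifs and belong to members with large falls at 5 h. The promoters are from RefSeq on GRCh38.p14, and capitals mark each match to TTTCCCGC, TTTCGCGC, TTTGCCGC or TTTGGCGC on either strand.
*DTL*, chr1:212035720-212035747, plus strand: atcagagagcgtgacgtcagTTTGGCGC
*CDT1*, chr16:88803743-88803772, plus strand: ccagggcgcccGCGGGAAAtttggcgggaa
*PCNA*, chr20:5126644-5126711, minus strand: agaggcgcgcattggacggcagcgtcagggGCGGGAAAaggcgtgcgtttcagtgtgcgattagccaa
*MCM6*, chr2:135876492-135876625, minus strand: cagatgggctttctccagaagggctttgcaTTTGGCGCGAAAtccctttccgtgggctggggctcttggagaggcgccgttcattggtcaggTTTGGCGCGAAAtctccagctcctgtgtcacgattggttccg
*MCM3*, chr6:52284889-52284936, minus strand: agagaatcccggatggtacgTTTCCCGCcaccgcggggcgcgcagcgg
*RFC3*, chr13:33818083-33818112, plus strand: atttggagctcGCGGGAAAacttgtctctg
The stretch of *DTL* ends at the base before the RefSeq start site, and the other stretches lie further upstream. Those of *DTL*, *CDT1* and *RFC3* overlap an exon of some transcript in GENCODE release 29, and those of *PCNA*, *MCM6* and *MCM3* do not. In *MCM6*, 4 matches form 2 pairs, each a match on 1 strand that overlaps a match on the other. *CDC6*, *CLSPN* and *MCM2* also hold the motif, at or past the start, and are not printed. The falls of the 6 printed genes are given beside their roles below.

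The libraries held between 6708864 and 13748598 counted reads. Within each group, log2 CPM (CPM being the read count scaled to the size of its library) of the 2 libraries correlated across genes between 0.979 (dex, 11 h) and 0.995 (dex, 7 h), and the biological coefficient of variation that edgeR estimated was lowest at 7 h (6.49%) and highest at 11 h (12.7%). One EtOH library at 11 h, replicate 1, had the lowest share of mitochondrial reads (3.30%, against up to 6.32%). All 6 tested genes of a list of GC targets, *TSC22D3* and *FKBP5* among them, were higher with dex at 5 h, with a median log2 fold change of 3.30. All 5 epithelial markers of A549 cells were detected and moved at 5 h, with *KRT8* (1.31), *KRT18* (1.07) and *CDH1* (0.65) called higher and *EPCAM* (-0.84) and *KRT19* (-0.56) called lower, and their part in the results was not tested. Of 8 markers of blood, endothelial and fibroblast cells, 6 had fewer than 10 counts in every library, with *CD3E* at 0. Of the other markers *CDH5* had at most 12 counts in a library, and *COL1A1* had between 45 and 268, with a log2 fold change of -1.2 at 5 h, while its partner chain *COL1A2* had 1 count in all libraries together. The summed level of the 8 markers was 5.93 to 9.50 CPM in the dex libraries at 5 h and 15.0 to 17.4 in the EtOH libraries, and without *COL1A1* it stayed at or below 1.22 CPM in every library.

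At 5 h, all 48 genes were lower with dex. A gene was called changed where its p from edgeR's quasi-likelihood test, adjusted by Benjamini-Hochberg over the genes tested, did not exceed 0.1, and 12.6% of all genes tested were called lower at this time. The median log2 fold change of the 48 genes was -1.01 (range -2.02 to -0.39, median standard error 0.13), while the median over all genes tested was 0.01, and adjusted p ranged from 2.50e-17 to 0.00901 (quasi-likelihood test of edgeR, Benjamini-Hochberg adjustment). In each of the 48 genes both dex libraries lay below both EtOH libraries, an arrangement that 27.7% of all genes tested showed (28.0% in the opposite order, found in 0 of the 48). Because the genes were chosen with earlier results of these data known, their distance from the background may partly reflect the choice. The fall was at least 2-fold in 24 genes. Summed over the genes, the dex level was 2522 ± 15.9 CPM and the EtOH level 5389 ± 102 (SD, n = 2 libraries), a ratio of 46.8%, a sum to which the most abundant mRNAs contribute most. In RNA from whole cultures, fewer cells in S phase and less of each mRNA per cell cannot be told apart.

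**Figure D1:**
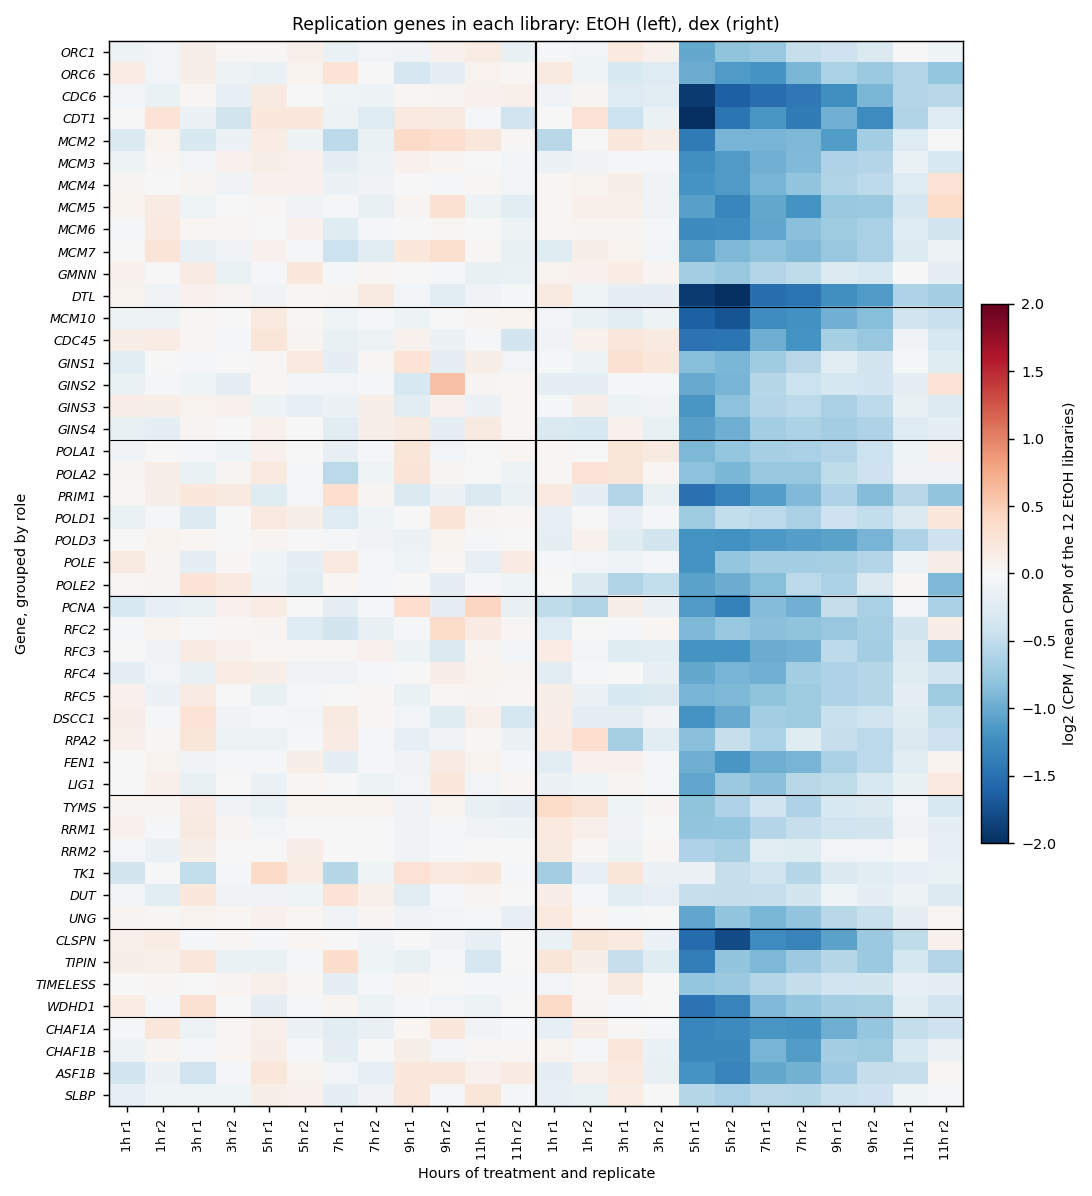
Level of the 48 replication genes in each of the 24 libraries, as log2 of the ratio of the library's normalised CPM to the mean of the 12 EtOH libraries (colour, blue being lower), with genes in rows by role and libraries in columns by hour and replicate. The dex libraries at 1 and 3 h mostly resemble the EtOH libraries, and nearly all rows turn clearly blue at 5 h. The row of *TK1* is faint at 5 h (79.7 and 62.9 CPM with dex). In most rows the colour fades through 7, 9 and 11 h.

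The 3 largest falls of single genes were in the licensing group. The median of the 12 genes at 5 h was -1.21 (range -2.02 to -0.82), a fall of 56.9%. *DTL* (chromosome 1 of GRCh38, 212035553 to 212107400), the substrate receptor of the ubiquitin ligase that removes CDT1 during S phase, was at 25 and 21.2 normalised CPM in the 2 dex libraries at 5 h and at 90.5 and 97.3 in the EtOH libraries. Both dex values were far below either EtOH value, with a log2 fold change of -2.02, its standard error 0.13 and its adjusted p 2.50e-17 (quasi-likelihood test of edgeR, Benjamini-Hochberg adjustment). *CDT1* and *CDC6*, the loaders of the helicase, followed with -1.97 (standard error 0.22) and -1.86 (standard error 0.12). The 6 subunits of the helicase ring fell by close amounts, from -1.02 for *MCM7* to -1.30 for *MCM6*, with *MCM5* at -1.16, *MCM2* at -1.18, *MCM4* at -1.25 and *MCM3* at -1.27, and with standard errors of 0.10 to 0.13 neighbours in this order do not differ beyond their error. *GMNN* (chromosome 6, 24774931 to 24786099), which encodes the CDT1 inhibitor geminin, had the smallest change of the group. It was at 58.6 and 56.4 CPM with dex and 92.5 and 110.3 with EtOH, apart in both replicates, for a log2 fold change of -0.82 (standard error 0.11).

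*MCM2* (chromosome 3, 127598223 to 127622436) was described at more times. At 3 h it was higher with dex, at 160.4 and 152 CPM against 113 and 128 with EtOH (log2 fold change 0.38, standard error 0.10). At 5 h it was at 52.1 and 72.8 CPM with dex and 154 and 129.9 with EtOH, so that the groups changed order between the times. It was still at 64.3 and 86.2 CPM with dex and 181 and 176 with EtOH at 9 h (-1.22, standard error 0.13), about as low relative to EtOH as at 5 h, when the other 5 subunits had fold changes between -0.95 (*MCM7*) and -0.53 (*MCM4*). The EtOH level of *MCM2* at 9 h was the highest of its 6 EtOH groups. Over all genes tested, fold changes went with the base content of transcripts at 3 and 9 h, in opposite directions (described below). The part of this trend in the values of *MCM2* was not tested. *ORC6* (chromosome 16, 46689643 to 46698394), a subunit of the origin recognition complex, was at 10.9 and 9.85 CPM with dex and 19.7 and 22.7 with EtOH at 5 h (log2 fold change -1.03, standard error 0.17), and lowest relative to EtOH at 7 h (-1.19). *ORC1*, the large ATPase subunit of the same complex, fell by a similar amount at 5 h (-0.97) and was back at -0.04 by 11 h, when *ORC6* was at -0.70.

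Among the genes that activate the helicase, the median at 5 h was -1.04 (6 of 6 called lower). *MCM10* (chromosome 10, 13161554 to 13211104), which binds the loaded helicase and is needed for it to open DNA, was at 26.3 and 24.6 CPM with dex and 93.4 and 84.0 with EtOH. The groups were far apart (log2 fold change -1.80, standard error 0.12). *CDC45*, which joins the ring to form the active helicase, was at -1.62 (standard error 0.14). The 4 GINS genes, whose products complete that helicase, lay close together between -1.08 (*GINS4*) and -0.85 (*GINS3*). *GINS3* (chromosome 16, 58295080 to 58406144) was at 10.6 and 13.4 CPM with dex and 22.2 and 21.1 with EtOH, with no overlap (standard error 0.17), and neighbours in the order of the GINS genes do not differ beyond their error.

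The 7 genes of polymerases and primase had a median of -0.88 at 5 h, and all were called lower. *PRIM1* (chromosome 12, 56731596 to 56752373), the catalytic subunit of primase, was at 16.6 and 18.6 CPM with dex and 39.6 and 46.2 with EtOH (-1.29, standard error 0.14). *POLD3*, an accessory subunit of polymerase delta, was next at -1.23 (standard error 0.13). *POLD1* (chromosome 19, 50384204 to 50418016), the catalytic subunit of the same polymerase, changed least, with 23.2 and 26.9 CPM against 43.5 and 41.2 (-0.76, standard error 0.13). The distance between these subunits of the same polymerase was larger than their standard errors together and was not itself tested. *POLA1* and *POLA2*, which form polymerase alpha with primase, were at -0.88 and -0.96, and *POLE* and *POLE2* of the leading-strand polymerase epsilon at -0.84 and -0.86, with standard errors of 0.11 to 0.18, so that these genes did not differ beyond their error.

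All 9 genes of the clamp, its loaders and the lagging strand were called lower at 5 h (median -0.99). *PCNA* (chromosome 20, 5114953 to 5126626), the sliding clamp that holds polymerases on DNA, fell most. It was at 445 and 386 CPM in the dex libraries and 1086 and 985 in the EtOH libraries (-1.32, standard error 0.11). The clamp loader subunits *RFC3*, *RFC4*, *RFC5* and *RFC2* were at -1.23, -0.99, -0.83 and -0.72. *RFC5* (chromosome 12, 118013588 to 118033130) had 24.5 and 25 CPM with dex and 42.3 and 45.5 with EtOH. *FEN1*, the flap endonuclease, and *DSCC1*, of an alternative clamp loader, were at -1.12 and -1.06. *LIG1* (chromosome 19, 48115445 to 48170603), the ligase that seals Okazaki fragments, had 19.1 and 23.4 CPM with dex and 36.4 and 40.2 with EtOH (-0.85, standard error 0.14). *RPA2* (chromosome 1, 27891524 to 27914746), a subunit of the protein that coats single-stranded DNA, changed least in the group. Its level was 16.5 and 21.4 CPM with dex and 27.4 and 28.8 with EtOH, apart but closer than for the other genes of the group (-0.57, standard error 0.15).

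Genes that supply nucleotides or keep uracil out of DNA had the smallest falls, with a median of -0.69 at 5 h (6 of 6 called lower). *UNG* (chromosome 12, 109097574 to 109110992), the glycosylase that removes uracil, fell most in the group, with 44.7 and 53.3 CPM with dex and 98.3 and 94.8 with EtOH (-0.98, standard error 0.11). The ribonucleotide reductase genes *RRM1* and *RRM2* were at -0.76 and -0.71, and *TYMS*, the thymidylate synthase, at -0.68. *RRM2* (chromosome 2, 10120698 to 10131419) was at 140.2 and 135 CPM with dex and 215 and 235 with EtOH at 5 h, and at 207 and 206 against 205 and 208 at 9 h. The groups were thus apart at 5 h and overlapped at 9 h. *DUT* (chromosome 15, 48331011 to 48343373), which hydrolyses dUTP, changed least of all 48 genes at 5 h, with 57.9 and 57.1 CPM against 75.4 and 74.9 (-0.39, standard error 0.11, adjusted p = 0.00901, quasi-likelihood test of edgeR, Benjamini-Hochberg adjustment), and was lower at 7 h (-0.59). *TK1*, the thymidine kinase of the salvage route, was at -0.54 at 5 h and was the only one of the 48 genes not called at 7 h (-0.15, standard error 0.13).

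Of the 4 genes that protect the fork, *CLSPN* (chromosome 1, 35720218 to 35769967), the mediator through which ATR activates CHK1, fell most. It was at 15.0 and 12.7 CPM with dex and 43.0 and 44.7 with EtOH (-1.67, standard error 0.14). *WDHD1*, which ties polymerase alpha to the helicase, was at -1.30. *TIMELESS* (chromosome 12, 56416373 to 56449403) and *TIPIN* encode partners in 1 complex and were at -0.83 and -0.98 (standard errors 0.11 and 0.19), which do not differ beyond their error. *TIMELESS* had 70.4 and 72.5 CPM with dex and 129 and 124 with EtOH.

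In the chromatin group, *ASF1B* (chromosome 19, 14119509 to 14136956), a histone chaperone, was at 14.4 and 13.1 CPM with dex and 38.3 and 34.3 with EtOH (-1.40, standard error 0.15). The CAF-1 subunits *CHAF1A* and *CHAF1B*, which receive histones from it behind the fork, were at -1.28 and -1.34, which do not differ from *ASF1B* beyond their error. *SLBP* (chromosome 4, 1692800 to 1712555), which binds histone mRNAs, was at 91.7 and 86.6 CPM with dex and 148 and 145 with EtOH and changed less (-0.72, standard error 0.10).

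**Figure D2:**
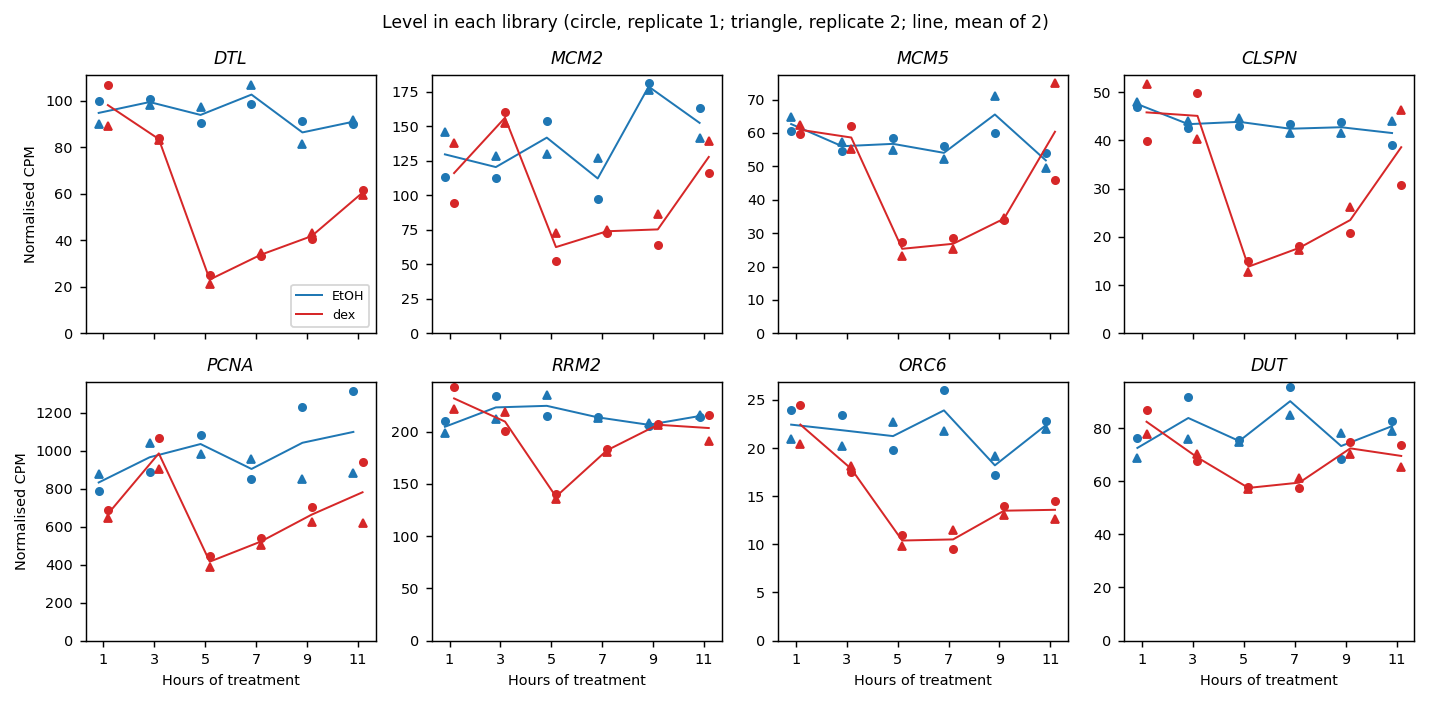
Normalised CPM of 8 replication genes against hours of treatment, with circles for replicate 1, triangles for replicate 2 and lines through the mean of 2 libraries (EtOH blue, dex red, axes starting at 0). At 5 h both dex libraries lie below both EtOH libraries in all 8 panels, and at 11 h they still do for *DTL*, *MCM2*, *ORC6* and *DUT*.

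Some sequence is shared with neighbouring genes, and whether strand was used in counting is not stated. Exons of *RFC5* overlap those of *WSB2* on the opposite strand over 186 bases, and *WSB2* had more reads in all (16197 against 9917), so that the value of *RFC5* is uncertain. *TYMS* overlaps *ENOSF1* over 719 bases (20793 and 4546 reads), and *PRIM1*, *MCM7*, *FEN1*, *LIG1*, *DUT*, *CLSPN*, *GINS4*, *RRM1* and *CHAF1A* also overlap antisense genes, each with fewer reads than the member. *POLD1* and *POLD3* overlap a gene on the same strand with fewer reads, and *CHAF1B* overlaps *MORC3* over 89 bases (9090 and 9251 reads).

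No fall of the genes was detected at 1 h, and 6 genes were lower at 3 h. At 1 h, 0 of the 48 genes were called lower and 0 higher with edgeR's quasi-likelihood test (background 0.417% lower and 0.639% higher), 2 had an unadjusted p under 0.05, and DESeq2 called 0, while 1 was called lower without dex replicate 1 and 3 without dex replicate 2. Both dex libraries lay below both EtOH libraries in 7 genes and above them in 7 (background 16.8% and 17.8%). At 3 h the median was still -0.02, but 6 genes were called lower (background 5.65%) and 3 higher (background 8.42%). The lower genes were *POLE2* (-0.78), *PRIM1* (-0.54), *RPA2* (-0.48), *RFC5* (-0.39), *RFC3* (-0.35) and *POLD3* (-0.33), and the higher ones *MCM2* (0.38), *GINS1* (0.28) and *POLA1* (0.28). *PRIM1* had 31.1 and 42.4 CPM with dex and 54.1 and 53.2 with EtOH at 3 h, and *RPA2* 18.7 and 25.5 against 34.9 and 27.4. These 6 lower genes were also called lower at 5 h, which follows from the call of all 48 genes at that time. Over all genes tested, 2.88% were called lower at both times. For *PRIM1* and *RPA2* the dex libraries were apart from the EtOH libraries but differed among themselves. DESeq2 called 3 of the genes lower at 3 h, and 2 were called without dex replicate 1 or without EtOH replicate 1.

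The fold changes at 3 h went with the guanine and cytosine (G+C) content of the transcripts. Across the 48 genes, which all share these 4 libraries, Spearman's rho between G+C content and log2 fold change was 0.59 at 3 h, against 0.30 across all genes tested, and it was 0.06 at 5 h. Over all genes tested, the 25% with the lowest G+C content had a median of -0.11 at 3 h and the 25% with the highest 0.16. With offsets that take out this trend in each library, 5 genes were called lower and 2 higher at 3 h, and 48 lower at 5 h. The members span 38.1% to 64.9% G+C, with a median of 48.1%, close to that of all genes tested (48.2%).

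Whether the effect of dex differed between 5 and 3 h was tested as a difference of the log2 fold changes over the 8 libraries of both times. It was more negative at 5 h for 43 of the 48 genes (background 5.61%) and less negative for 0 (background 3.67%), with a median difference of -0.98. The genes not called were *POLE2* (-0.08, standard error 0.23), *RPA2* (-0.09, 0.23), *DUT* (-0.11, 0.16), *RFC5* (-0.44, 0.17) and *TIPIN* (-0.59, 0.26). Of these, *POLE2*, *RPA2* and *RFC5* had been called lower at 3 h. The largest differences were those of *CDT1* (-1.95), *CDC45* (-1.82) and *DTL* (-1.77). *DTL* was at 83.9 and 83.1 CPM in the dex libraries at 3 h and at 25 and 21.2 at 5 h.

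The median fall of the 48 genes was smaller at each later time point. At 7 h, 47 genes were called lower (background 13.5%) with a median of -0.76 and both dex libraries below both EtOH libraries in 47 (background 29.8%), at 9 h 37 genes (background 8.95%) with a median of -0.58, and at 11 h 4 genes (background 3.33%) with a median of -0.19 and 0 called higher (background 5.8%). The lowest fold change was reached at 5 h by 44 genes, at 7 h by *ORC6* and *DUT*, and at 9 h by *MCM2* and *RFC2*. The 36 genes called lower at 5, 7 and 9 h compare with 4.76% of all genes tested. Falls of at least 2-fold remained in 9 genes at 7 h (*DTL*, *CDC6*, *CLSPN*, *PRIM1*, *ORC6*, *MCM10*, *CDT1*, *POLD3* and *RFC3*) and in 4 at 9 h (*CDT1*, *MCM2*, *CDC6* and *DTL*). From 7 to 9 h the fall became smaller in 37 of the 48 genes, and the medians of the licensing genes (-0.78 and -0.79) and the helicase activation genes (-0.59 at both times) did not become smaller. Between these times the relation of fold change to G+C content changed sign over all genes tested (Spearman's rho 0.17 and -0.24). Its part in these medians was not tested. For 33 genes the fold change rose at each of the 3 steps from 5 to 11 h. The count at 9 h was 15 without dex replicate 1 and 15 without dex replicate 2, while both dex libraries were below both EtOH libraries in 46 of the 48 genes, against 28.7% of all genes tested, and above them in 0, against 26.4%.

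**Figure D3:**
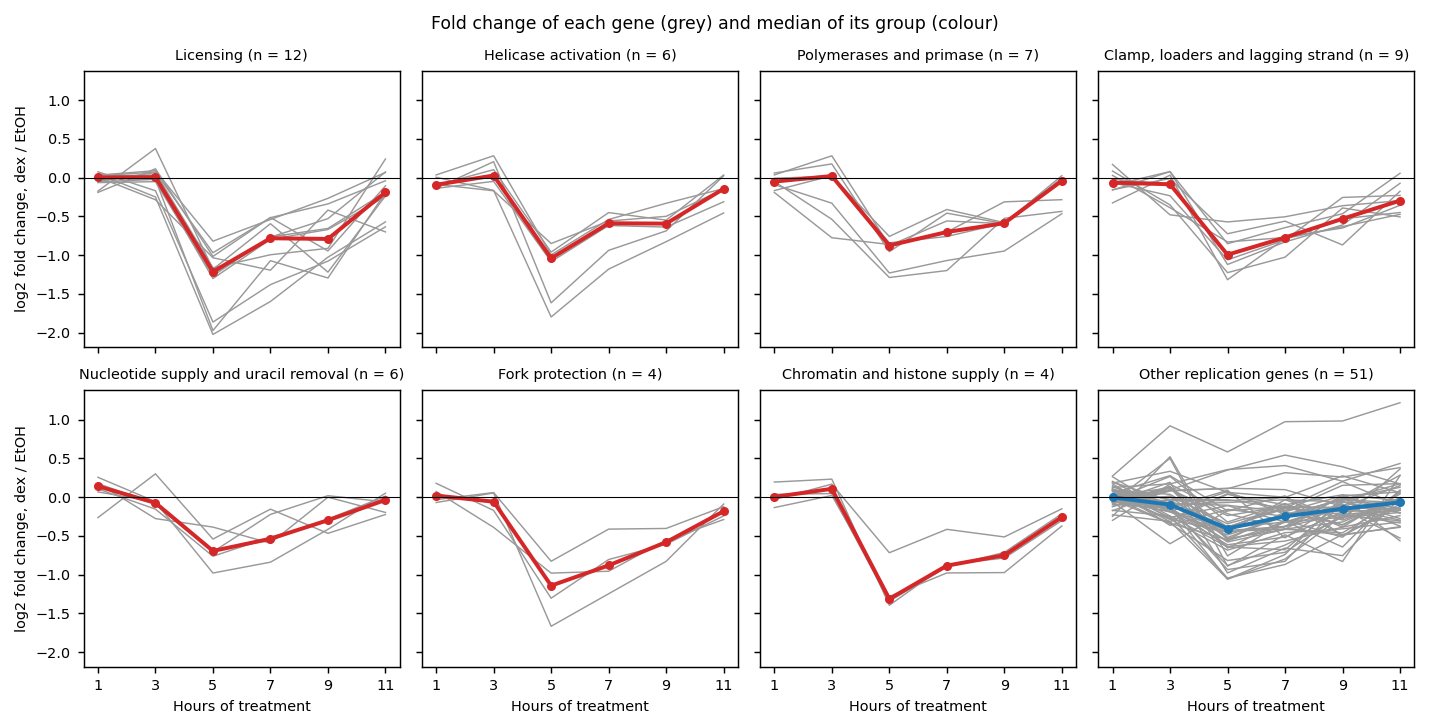
Log2 fold change of dex against EtOH over hours of treatment for each gene (grey) and the median of its group (red for the 7 member groups, blue for 51 other replication genes, with n in each title). The member medians stay near 0 at 1 and 3 h, reach between -1.31 and -0.69 at 5 h and end between -0.30 and -0.04 at 11 h, while the other genes have a median of -0.40 at 5 h and spread to both sides of 0.

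At 11 h the genes were near the EtOH level but not all there. *ORC6* (-0.70, standard error 0.19), *CDC6* (-0.63, 0.13), *DTL* (-0.57, 0.14) and *MCM10* (-0.46, 0.14) were called lower, with adjusted p between 0.00873 and 0.0723 (quasi-likelihood test of edgeR, Benjamini-Hochberg adjustment). *DTL* had 61.5 and 59.4 CPM with dex and 90.1 and 91.9 with EtOH, *ORC6* 14.5 and 12.7 against 22.8 and 21.9, and *MCM10* 62.0 and 60.2 against 84.3 and 85.5. All 3 stood clearly apart from EtOH, by less than at 5 h. Both dex libraries were below both EtOH libraries in 23 genes (background 23.6%). The count of called genes at this time depended on single libraries. It was 20 without dex replicate 1, 15 without dex replicate 2, 0 without EtOH replicate 1 and 1 without EtOH replicate 2. Summed over the genes, the dex level was 4505 ± 107 CPM and the EtOH level 5286 ± 449 (SD, n = 2 libraries), or 85.2% of the EtOH level, after 61.0% at 7 h and 66.2% at 9 h.

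The 2 dex libraries at 11 h did not agree for several genes that had come back. *MCM5* (chromosome 22, 35400063 to 35425430) was at 27.3 and 23.3 CPM with dex and 58.6 and 54.9 with EtOH at 5 h, and at 45.8 and 74.9 against 53.9 and 49.7 at 11 h. One dex library was below the EtOH libraries and the other above (0.24, standard error 0.20, and -0.17 without dex replicate 2). *CLSPN* showed the same split, with 30.8 and 46.4 CPM against 39.1 and 44.0, as did *LIG1* with 35.6 and 45.0 against 38.0 and 40.4 and *POLD1* with 31.2 and 43.8 against 39.4 and 38.7. *PCNA* went the other way, with 941 and 622 CPM with dex and 1317 and 882 with EtOH, where replicate 1 was the higher library in both groups (-0.47, standard error 0.21). *GMNN* (95.7 and 83.5 against 86.3 and 86.9), *UNG* (81.4 and 94.6 against 89.4 and 82.6) and *SLBP* (129 and 134 against 162 and 134) overlapped between the groups, whereas *PRIM1* (32.0 and 27.2 against 38.4 and 42.6) and *ASF1B* (23.8 and 33.4 against 34.6 and 36.7) did not.

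The share of the 5 h fall that was left at 11 h (the log2 fold change at 11 h as a percent of that at 5 h) had a median of 17.9% and ranged from -20.7% for *MCM5*, *GMNN* (-8.28%) and *LIG1* (-6.56%), which were at or above the EtOH mean, to 51.9% for *RPA2*, 54.2% for *RFC5* and 67.8% for *ORC6*. *LIG1* was at -0.0057 in place of 0.06 when libraries were scaled by their totals alone, and *UNG* at -0.010 in place of 0.05. At 7 h the median share left was 66.4% and at 9 h 53.8%. The polymerase group had the smallest median fold change at 11 h beside the nucleotide group (both -0.04), and the clamp group the largest (-0.30). In the clamp group *RFC3*, *PCNA*, *RFC5* and *RFC4* were at -0.51, -0.47, -0.45 and -0.36, with standard errors of 0.15 to 0.21. *RPA2* had 24 and 22.1 CPM with dex and 30.4 and 27.1 with EtOH, *RFC5* 41.0 and 28.6 against 48.8 and 47.6 and *DUT* 73.6 and 65.5 against 82.6 and 78.9, and in all 3 both dex libraries remained below both EtOH libraries.

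**Figure D4:**
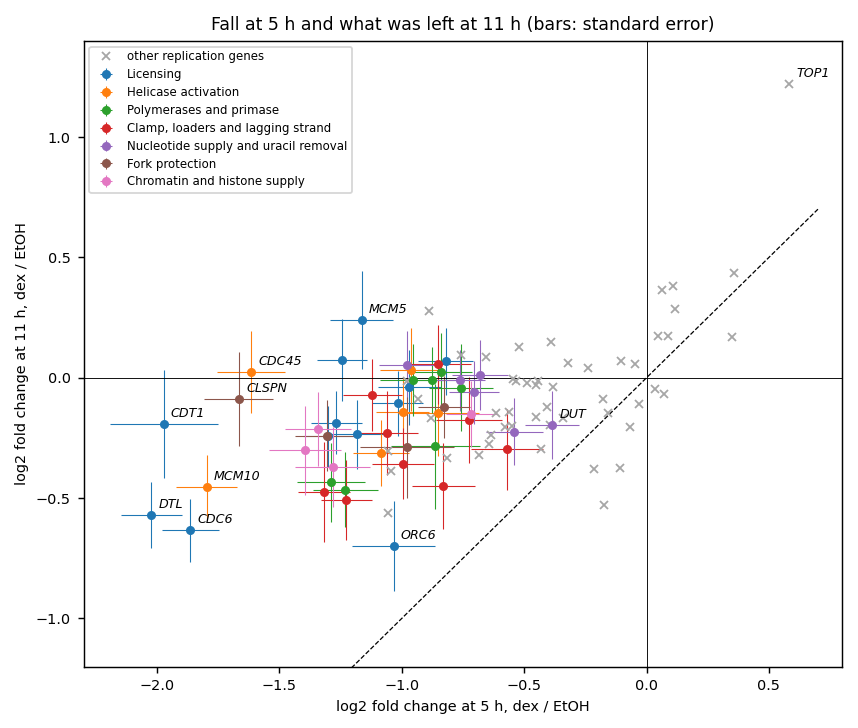
Log2 fold change of dex against EtOH at 11 h (vertical) against that at 5 h (horizontal) for the 48 replication genes, coloured by role with bars of 1 standard error, and for 51 other replication genes (grey crosses), with a dashed line at equal values for both times. All 48 points lie above the dashed line and left of 0, with *DTL* and *CDC6* at the lower left, *DUT* nearest to the line and *MCM5* highest.

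A test of the difference between the effects at 11 and 5 h, over 8 libraries, found 27 of the 48 genes less negative at 11 h (background 0.665% in that direction) and 0 more negative (background 0.176%). All 48 differences were positive, with a median of 0.85. They were largest for *CDT1* (1.77, standard error 0.33), *CDC45* (1.63, 0.22) and *CLSPN* (1.56, 0.25). By role, 11 of 12 licensing genes and 5 of 6 helicase activation genes were called, against 2 of 7 polymerase and primase genes, 1 of 9 clamp, loader and lagging strand genes and 2 of 6 nucleotide genes, with 3 of 4 in each of the remaining groups. The licensing gene that was not called was *ORC6* (0.32, standard error 0.24). Whether the groups differed in recovery was not tested. This comparison and that of 5 with 3 h share the 5 h libraries. The count rested on several libraries. It was 7 and 10 without dex replicate 1 or 2 at 5 h, 11 and 8 without EtOH replicate 1 or 2 at 5 h, and 4 and 2 without EtOH replicate 1 or 2 at 11 h, but 39 and 40 without dex replicate 1 or 2 at 11 h. On counts simulated at the mean levels of these libraries, this test recovered 74% of 2-fold and 8% of 1.4-fold changes, so that genes with smaller differences could be missed. The simulation gave every gene the same spread and changed only a few well-counted genes, so that recovery in the real data may differ.

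Between 5 and 11 h the level rose in the dex cells, and no change was detected in the EtOH cells. Within dex, 33 genes were higher at 11 than at 5 h (background 1.1%) and 0 lower (background 0.443%), with a median log2 difference of 0.81, and the 27 genes above were all among them. The count was 9 without dex replicate 1 and 13 without dex replicate 2 at 5 h. Within EtOH, 0 genes differed between 11 and 5 h with edgeR's quasi-likelihood test (background 0.0196% lower and 0.15% higher), 3 had an unadjusted p under 0.05, DESeq2 called 0, and the median difference was -0.05. *DTL* had 25 and 21.2 CPM at 5 h and 61.5 and 59.4 at 11 h with dex, and 90.5 and 97.3 and then 90.1 and 91.9 with EtOH. Between 1 and 5 h, *PCNA* (0.32) and *TK1* (0.43) rose in the EtOH cells (background 1.7% higher) and 0 genes were called lower (background 1.19%), but neither was called without EtOH replicate 1 of either time. Over the 12 EtOH libraries, the coefficient of variation of the 48 genes had a median of 8.97% and ranged from 3.89% to 19.9%.

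Other genes of replication had a smaller median change. They and the members were chosen with earlier results of these data known, so that the difference may partly reflect the choice. Of 52 further genes for origins, helicase loading, forks, nucleotides and the ATR checkpoint, 51 were tested. At 5 h, 31 of them were called lower and 3 higher (background 12.6% and 12.4%), and the median was -0.40. *ATAD5*, which helps unload PCNA, was at -1.04, the nuclease *DNA2* at -1.06, *MTBP*, which takes part in origin firing, at -1.06, and *CDC7*, the kinase that triggers firing, at -0.93. Partners of members differed in their values. *ORC2*, *ORC4* and *ORC5* were at 0.05, 0.04 and 0.07, and *POLD2*, which binds POLD1, at 0.06 (standard errors 0.11 to 0.12). *ORC3*, another subunit of the origin recognition complex, was called lower, with 22.1 and 27.5 CPM with dex and 35.4 and 32.6 with EtOH (-0.45). *RFC1*, the large subunit of the clamp loader, *POLE3*, of polymerase epsilon, and *RPA1*, a partner of RPA2, were also called lower at -0.55, -0.39 and -0.34. *POLD4*, *POLE4* and *RPA3*, partners named after their values were seen, were not called (-0.21, -0.24 and -0.11). The 3 higher genes were *TOP1* (0.58), the topoisomerase that relaxes DNA ahead of forks, *SHMT1* (0.36) and *CTPS1* (0.35). *TOP1* was also higher at 11 h (1.22). At 9 h 13 of the 51 genes were called lower (background 8.95%), a count that was 0 and 1 without dex replicate 1 or 2 and 21 and 20 without EtOH replicate 1 or 2. At 11 h *ASF1A* (-0.53), the paralog of ASF1B, was the 1 of 51 genes called lower, no more than the background of 3.33%, a count that was 16 and 3 without dex replicate 1 or 2 and 0 without either EtOH library.

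Regulators of S phase entry were read beside the replication genes. Of 25 tested, 16 were called lower and 4 higher at 5 h (background 12.6% and 12.4%). *E2F1* was at 0.23 at 3 h, -1.56 at 5 h and -0.29 at 11 h, of which the value at 5 h was called. *E2F2*, *E2F7* and *E2F8* were at -1.87, -1.81 and -1.58 at 5 h, within the range of the members (-2.02 to -0.39). *E2F3* had 35.5 and 43.0 CPM with dex and 45.3 and 43.0 with EtOH at 5 h, so that its groups met. *CCNE2* (cyclin E2), *CDC25A* (a phosphatase that activates CDKs) and *CDK2* (the kinase partner of cyclin E) were at -1.30, -1.19 and -0.85. The CDK inhibitor gene *CDKN1A* was higher at 3, 5 and 11 h (1.29, 1.45 and 0.92). Its dex libraries also lay above EtOH at 7 h (173 and 172 CPM against 56.4 and 61.1) and 9 h (168 and 186 against 81.0 and 79.0). *CDKN1C*, another CDK inhibitor gene, had 107 and 112 reads with dex and 4 and 4 with EtOH at 5 h. *CCND1* and *MYC* were higher at 5 h (0.60 and 0.36), and *CCND3* and *CDK6* were lower at 5 h (-0.69 and -0.64) and still lower at 11 h (-0.86 and -0.50).

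The promoters of the members were searched for short motifs in windows of 300 bases, 250 before and 50 after each RefSeq start. Of the 48 genes 42 had an entry, with 56 promoters. An E2F-like motif (the 4 words given with the sequences above, both strands) was present in 23 of the 56 promoters, or 41.1%, against 3.31% of all 35116 promoters and 4.65% of those of the other genes tested. The CCAAT box (CCAAT, both strands) was in 57.1% against 34.6% of all promoters and 34.5% of those of the other genes tested. The CHR word TTTGAA or TTCGAA was in 8.93% against 16.4% and 12.1%. The core of the GR element, ACANNNTGT, was in 0 of the 56 promoters, in 5.37% of all and in 3.21% of those of the other genes tested. This says only that these letters are not in these windows. Each motif was counted on its own, also where its match could overlap that of another. Of the 31 E2F matches in member promoters, 25 began within 100 bases of the start. The 23 genes with the motif, *DTL* and *DUT* among them, had a median of -0.98 at 5 h, and the 19 without it -0.99. The difference was not tested, and other spellings of an E2F site were not searched. These matches are descriptions of sequence, and binding was not measured here.

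**Figure D5:**
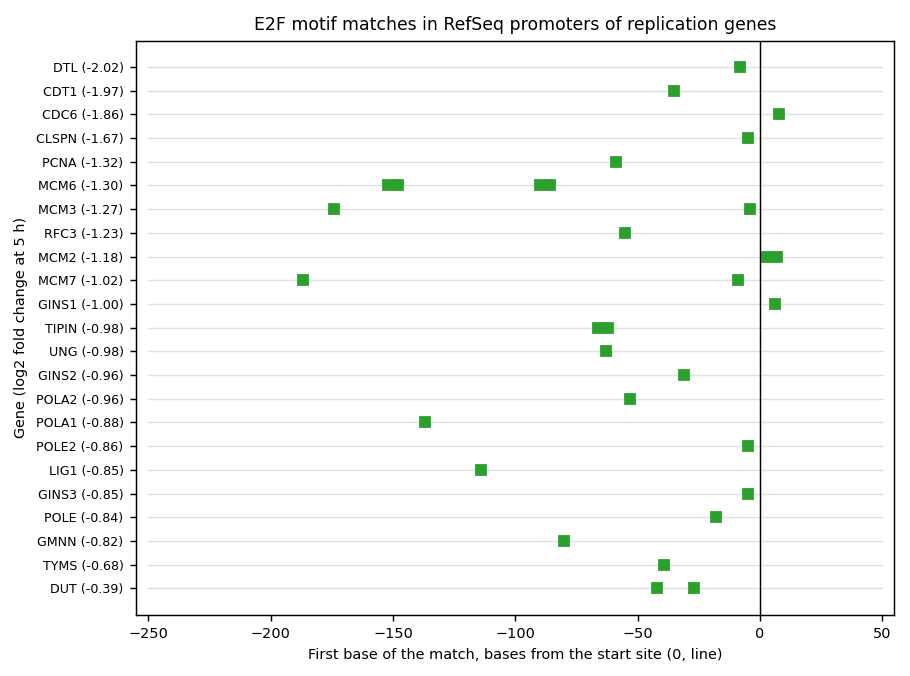
Position of each E2F-like motif (squares) in the RefSeq promoters of 23 replication genes, in bases from the start site (vertical line), with genes ordered by log2 fold change at 5 h, given in brackets. Matches cluster within 100 bases of the start from the gene with the largest fall, *DTL* (-2.02), to the one with the smallest, *DUT* (-0.39).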

How the data were processed

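Poly-A RNA of A549 cells was sequenced as stranded single-end reads by the authors, who aligned them to GENCODE release 19 transcripts (hg19) with Bowtie 0.12.9 and counted them with samtools 1.3.1, versions that come from the submitters' processing notes. The deposited values are raw counts of reads per transcript for 24 libraries, not normalised. The placement of reads with several matching transcripts, and whether strand was used in counting, is not given in the sources used here. A treatment text in the labels names a single duration, and the duration labels of each sample were used instead. The methods describe triplicates, and 2 libraries per group were analysed here.

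Of 119207 transcripts, 110262 (94.1% of counts) were matched by transcript identifier to GENCODE release 29 genes on GRCh38 and summed per gene. Gene coordinates are those of release 29. Library totals ranged from 6708864 to 13748598 counts (median 10109394), and the fewest counts of a member in any library was 29. Genes with enough reads by edgeR's filterByExpr over the 12 groups were kept (15337). Each time point was fitted on its own with edgeR 4.0.16 (robust quasi-likelihood test, TMM scaling, R 4.3.3), with Benjamini-Hochberg adjustment over all genes tested and calls at an adjusted p of at most 0.1. Differences between times were fitted over 8 libraries (effects) or 4 libraries (within a treatment). Standard errors were obtained by dividing the size of the log2 fold change by √F. Normalised CPM uses TMM factors over all 24 libraries and compares a gene between libraries, not genes with each other. On simulated counts, with the same spread for every gene and few changed genes, the test at 5 h recovered 99% of 2-fold and 60% of 1.4-fold changes. At 11 h it recovered 94% and 8%.

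The members and the gene lists were chosen with earlier results of these data known. Library values are given for the members with the largest and the smallest change at 5 h in each role, those with the 3 smallest and 3 largest shares left at 11 h, and *PCNA*, *MCM2* and *RRM2*. Genes of other lists are named where called or of opposite direction. Alternatives were DESeq2 1.42.0 and its size factors, library totals, other filters, 1 fit over all libraries, a replicate block, an adjusted p of 0.05, the most counted transcript of each gene, each library left out and, chosen after seeing the data, offsets corrected for G+C content (loess span 0.3). *UHRF1* is not reported here. Tables, motifs and figures were made with Python 3.11.15, pandas 2.3.3 and matplotlib 3.10.9.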

Additional observations from a re-analysis of the deposited data

Results flagged for a closer look

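The effect of dex differed between time points by a test of the difference itself (edgeR, adjusted p of at most 0.1) for 43 replication genes between 5 and 3 h and for 27 between 11 and 5 h. Both comparisons use the 5 h libraries.

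Of the members described by library, the log2 fold change at 5 h minus that at 3 h passed for the licensing genes *DTL* (-1.77), *MCM2* (-1.56), *MCM5* (-1.23), *GMNN* (-0.91) and *ORC6* (-0.75), and for *MCM10* (-1.63) and *GINS3* (-0.68) of helicase activation. It also passed for *POLD1* (-0.78), *PRIM1* (-0.75), *PCNA* (-1.35) and *LIG1* (-0.93), for *UNG* (-0.91) and *RRM2* (-0.62), and for *CLSPN* (-1.72), *TIMELESS* (-0.88), *ASF1B* (-1.63) and *SLBP* (-0.88).

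The log2 fold change at 11 h minus that at 5 h passed for *CLSPN* (1.56), *DTL* (1.44), *MCM5* (1.39), *MCM10* (1.33), *ASF1B* (1.08), *UNG* (1.02), *MCM2* (0.93), *GMNN* (0.87) and *TIMELESS* (0.69).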

How the results depend on the processing

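All 48 genes were lower at 5 h under every alternative that kept all libraries, and 47 to 48 with a library left out, where a lone library is assumed to vary like the other groups. With all libraries kept, the members' counts that moved by over 1.5 times were those at 1, 3 and 11 h and that between 1 and 5 h in EtOH cells, while with a library left out those at 9 h and between 11 and 5 h moved too, and the cause was not tested. With a replicate block, 1 gene was lower at 1 h and 8 at 11 h, and 2 other replication genes were lower at 3 h and 2 at 11 h. At 9 h the block called 44 members, against 37 without it. The methods describe the EtOH control as paired, without saying which libraries belong together. Deviations of same-numbered libraries correlated at 0.37 (1 h), 0.22 (9 h) and between -0.23 and 0.04 (other times) over 10658 genes. Over the members these correlations lay between -0.57 (3 h) and 0.67 (1 h). They do not settle whether the numbers pair the libraries, and the main fits did not pair them. With G+C-corrected offsets, chosen after seeing the data, 1 gene was lower at 1 h and 14 at 11 h, against 2 and 3 of the other replication genes at 3 and 11 h. At 11 h the count was 8 with no filter and 12 with 1 fit over all libraries. DESeq2 called 3 members at 3 h. For the EtOH cells between 1 and 5 h, 1 fit over all libraries and an adjusted p of 0.05 each left 0. For the other genes, the count at 3 h was 2 with DESeq2 or the most counted transcript and 3 with 1 fit or an adjusted p of 0.05. At 9 h it was 8 with DESeq2 or the most counted transcript. At 11 h it was 0 with DESeq2 or an adjusted p of 0.05, 2 with library totals or no filter and 8 with 1 fit. The median share left at 11 h was 23.2% with G+C-corrected offsets, 22.7% with library totals and 29.1% with 7 h in place of 5 h.

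With each library left out, the members lower with dex numbered 0 to 3 at 1 h, 2 to 8 at 3 h, 38 to 48 at 7 h, 15 to 43 at 9 h and 0 to 20 at 11 h. The effect differed in 40 to 42 members between 5 and 3 h and in 2 to 40 between 11 and 5 h, the level in 9 to 41 between 11 and 5 h in dex cells, and in EtOH cells in 0 to 1 between 11 and 5 h and 0 to 3 between 5 and 1 h. The other genes called lower numbered 0 to 1, 1 to 8, 25 to 29, 13 to 28, 0 to 21 and 0 to 16 at the 6 times in order. The median share left was 14.3% to 20.2%.

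The fold change at 11 h changed sign, always near 0 and without a call, for *GMNN* (-0.053), *POLD1* (0.017), *LIG1* (-0.17) and *CLSPN* (0.025) with the most counted transcript, for *LIG1* (-0.10) and *UNG* (-0.038) with G+C-corrected offsets, and for *LIG1* (-0.0057) and *UNG* (-0.010) with library totals. With 1 library left out, *MCM5* (-0.17 to 0.56), *GMNN* (-0.029 to 0.15), *POLD1* (-0.32 to 0.19), *LIG1* (-0.14 to 0.22), *RRM2* (-0.15 to 0.010), *UNG* (-0.073 to 0.16) and *CLSPN* (-0.43 to 0.18) took both signs at 11 h. The fewest counts of a member in any library was 29, and on simulated counts 8% of 1.4-fold changes were recovered at 11 h against 60% at 5 h.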

Other observations

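The relation of fold change to G+C content changed sign between time points. Across the 48 replication genes, Spearman's rho between transcript G+C content and log2 fold change was -0.38 at 1 h, 0.59 at 3 h, 0.06 at 5 h, 0.23 at 7 h, -0.38 at 9 h and 0.35 at 11 h. Across all genes tested it was -0.24, 0.30, 0.10, 0.17, -0.24 and 0.23 at the same times. Genes are not independent replicates, and within each time the points share 4 libraries.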
